A study of Mus musculus with 8 samples.

Results

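The comparison set 2 libraries of homozygous ChiaRed cells (C/C) against 3 libraries of heterozygous cells (C/+), 5 of the 8 libraries of the series. ChiaRed is a red reporter allele of Chia1, the gene of acidic mammalian chitinase (AMCase). All 5 libraries held the ChiaRed+ part of the EpCAM+CD45- gate, an epithelial gate that leaves out leukocytes, sorted from lungs of C57BL/6J mice aged 14 weeks. The 3 remaining libraries were EpCAM+CD45- cells of WT mice without a ChiaRed sort. They entered the choice of tested genes, the scaling of levels and the estimate of the spread between libraries, and no comparison. The members were chosen by genotype and sort alone, so that both sides carried at least 1 reporter allele and passed the same gate and differed in the number of reporter alleles. The labels do not say whether libraries came from separate mice, so p-values measure the spread between these libraries, which may be technical.

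AMCase is a secreted enzyme that cleaves chitin, a polysaccharide of insects, mites and fungi, and in the mouse lung it is made by epithelial cells. Alveolar type 2 cells make surfactant, carry a large secretory load through the endoplasmic reticulum (ER), and can divide to give type 1 cells. Cells meet misfolded protein in the cytosol with heat shock chaperones, under the factor HSF1, and misfolded protein in the ER with the unfolded protein response. Immediate early genes encode transcription factors and signalling regulators that are transcribed soon after a stimulus, without a need for new protein.

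Levels are CPM (counts scaled to library totals that were adjusted by TMM scaling factors). Summed over all tested genes they therefore differed between groups. These sums were 1066224.8 and 1093130.4 CPM for the C/C libraries, against 984994.5 to 1002830.8 CPM for C/+. Summed levels of gene lists include this offset. Changes are log2 fold changes, C/C minus C/+, from 1 edgeR quasi-likelihood fit, with standard errors (SE). A gene was called where its Benjamini-Hochberg adjusted p over all 14906 tested genes was under 0.05. Total counts were 17057216 to 30190458 in C/+ and 41950581 and 46478577 in C/C. The mitochondrially encoded share of counts was 3.93% to 6.4% in C/+ and 4.92% and 6.67% in C/C. The library C/+ 1 was the only male of the 5, with Xist at 0.359 CPM, against 289.5 CPM or more in the other libraries. Sftpc, the surfactant protein C gene and defining marker of alveolar type 2 cells, stood at 148600, 141100 and 137200 CPM in C/+ and at 166700 and 163500 CPM in C/C. The labelled epithelial gate was met in its 2 sorted markers: Epcam was at 157.3 to 201.7 CPM in the 5 libraries, and Ptprc, which encodes CD45, was at 1.795 CPM or less.

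The C/C libraries nearly lacked Chia1 transcripts. Chia1 (chr3:106113229-106132120, plus strand, GRCm38) had 9298, 7307 and 3795 counts in C/+ and 63 and 14 counts in C/C. Its level was 303.5, 340.9 and 223.2 CPM in C/+ against 1.446 and 0.3649 CPM in C/C, a log2 fold change of -8.28 (SE 0.50, adjusted p = 0.000124). The groups did not overlap, and the near loss of the transcript went with the genotype label in both C/C libraries. The other measured members of the chitinase family were not called. Chil1, an abundant chitinase-like lectin without enzyme activity, stood at 4950, 5947 and 5950 CPM in C/+ and at 5912 and 6896 CPM in C/C (log2 fold change 0.19, SE 0.14, adjusted p = 0.497). Ctbs, the lysosomal chitobiase gene, stood at 9.655 ± 1.929 CPM (SD, n = 3) in C/+ against 9.159 ± 0.6776 CPM (SD, n = 2) in C/C. Of 44 tested genes within 2 Mb of Chia1, 2 were called, a share below the 7.08% called over all genes, and both were lower in C/C: Gstm2, a glutathione transferase (log2 fold change -0.99, adjusted p = 0.00799), and Csf1, the macrophage growth factor (log2 fold change -1.10, adjusted p = 0.0334). Both calls were lost with either C/C library left out, and that of Csf1 also for WT 2, C/+ 1 and C/+ 2.

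Across all genes, 1056 were called (7.08% of those tested). Of these, 261 were higher in C/C (1.75%) and 795 were lower (5.33%). The 2 sets differed in size of change and in level. The median log2 fold change was 0.69 among the higher genes, of which 70 changed at least 2-fold, and -3.20 among the lower genes, of which 706 did. Genes called lower had a median level of 6.72 CPM in C/+ against 0.803 CPM in C/C, whereas genes called higher had a median of 46.6 CPM in C/+ against 85.6 CPM in C/C. The median over all tested genes was -0.01. Regardless of the test, the libraries of both groups did not overlap for 2693 genes that were higher in C/C (18.1%) and 3018 genes that were lower (20.2%).

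**Figure D1:**
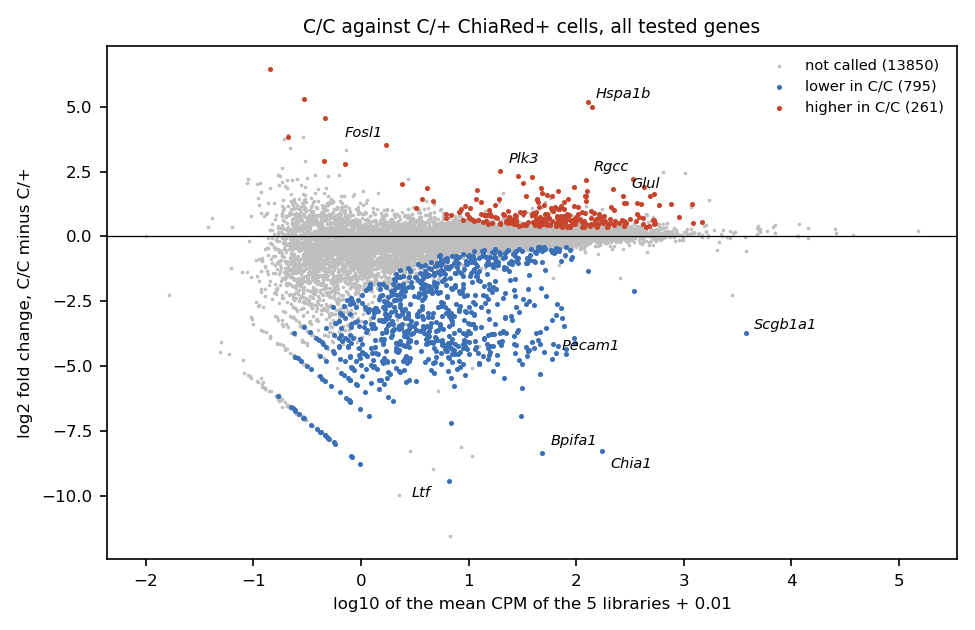
Each point is 1 of the tested genes, with the log10 of its mean CPM over the 5 libraries (plus 0.01) on the x axis and its log2 fold change, C/C minus C/+, on the y axis; red and blue points are the 261 genes called higher and the 795 called lower. The lower genes reach much larger changes than the higher genes, and most of them lie at low levels.

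The calls rested on both C/C libraries. Leaving out C/C 1 left 37 genes called higher and 148 lower, and leaving out C/C 2 left 66 higher and 178 lower. The C/+ libraries mattered less: 172 higher and 568 lower calls were made when C/+ 1 was dropped, and 112 higher and 616 lower calls when C/+ 2 was dropped. Of the 261 higher genes 31, and of the 795 lower genes 113, were called in each of the 8 fits that left out 1 library, WT libraries included. DESeq2 called 419 genes higher and 1164 lower, among them 259 of the 261 and 794 of the 795.

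Alveolar type 2 identity genes did not pass the test. Of 40 tested markers none was called, 6 had an unadjusted p under 0.05, DESeq2 called 4, and the median log2 fold change was 0.06, against -0.01 over all genes. Sftpb, the surfactant protein B gene, stood at 21680, 24250 and 23530 CPM in C/+ and at 26100 and 30690 CPM in C/C (log2 fold change 0.29, SE 0.12, adjusted p = 0.183). Abca3, the lipid transporter of the lamellar body, had a log2 fold change of -0.05 (SE 0.12). Etv5, a transcription factor that maintains type 2 cells, had a log2 fold change of -0.12 (SE 0.13). At these scaled levels each of the 4 surfactant protein genes was higher in both C/C libraries than in any C/+ library. None of these differences passed the test. The scaling factors raised the C/C levels relative to C/+, and the order without them was not examined. The 38 tested cell cycle genes had no call either, with 14 at an unadjusted p under 0.05, 35 of the 38 below a log2 fold change of 0 and a median of -0.56; DESeq2 called 5 of them, and the edgeR fit without C/+ 2 called 9.

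Heat shock chaperones were higher in C/C. Of 54 tested chaperone genes 19 were called higher and 2 lower, against 1.75% and 5.33% of all tested genes. The median log2 fold change was 0.40. Called genes came from most classes: 4 of 10 HSP70 genes, the HSP110 gene Hsph1, 4 of 10 HSP90 and cochaperone genes, 4 of 9 HSP40 genes, 2 of 5 small heat shock genes and 2 of 8 subunits of the cytosolic chaperonin. The edgeR fit called none of the 3 mitochondrial chaperones, of which 2 had an unadjusted p under 0.05. Hspd1, the mitochondrial HSP60 gene, had a log2 fold change of 0.59 (SE 0.17, adjusted p = 0.0662 by edgeR), and DESeq2 called it, as did edgeR without WT 1 or C/+ 3. The summed level of the 54 genes was 4027.1, 3926.8 and 3852.9 CPM in C/+ against 7506.8 and 5569.6 CPM in C/C.

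The inducible HSP70 genes changed most. Hspa1a stood at 22.69, 4.665 and 3.705 CPM in C/+ and at 510.4 and 164.7 CPM in C/C. All C/+ libraries lay below both C/C libraries, C/+ 1 was the highest of its group, and the log2 fold change was 4.97 (SE 0.76, adjusted p = 0.00384). Its neighbour Hspa1b stood at 16.65, 4.338 and 3.529 CPM in C/+ and at 476.2 and 137.5 CPM in C/C (log2 fold change 5.17, SE 0.85, adjusted p = 0.00549). The 2 genes are near copies: 58.8% of the 50-base words in the annotated transcripts of Hspa1a also occur in Hspa1b, so reads may have been split between them, and their sum was 39.3, 9 and 7.23 CPM in C/+ against 987 and 302 CPM in C/C. Hspa8, the constitutive HSP70 gene and far more abundant in C/+, stood at 168.5, 193.4 and 189.6 CPM there and at 492.2 and 409.6 CPM in C/C (log2 fold change 1.29, SE 0.32, adjusted p = 0.0356). DESeq2 did not call Hspa8. The 2 chaperone list members called lower, Hspa12a and Hspa12b, are distant HSP70 relatives with log2 fold changes of -1.55 and -4.15. The call of Hspa1a held in each fit that left out 1 library; that of Hspb1 did too, that of Hspa1b was lost without C/C 1, and those of Hspa8 and Hsph1 were lost when any of the 5 libraries was dropped.

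Partners of HSP70 moved with it. Dnaja1, an HSP40 that hands clients to HSP70, stood at 51.77, 46.46 and 38.52 CPM in C/+ and at 250.4 and 94.77 CPM in C/C (log2 fold change 1.92, SE 0.34, adjusted p = 0.00737). Dnajb1, another HSP40, had a log2 fold change of 1.45 (adjusted p = 0.00631). Bag3, a nucleotide exchange factor that couples HSP70 to autophagy, stood at 63.65, 52.44 and 61.11 CPM in C/+ and at 105.2 and 82.65 CPM in C/C (log2 fold change 0.67, adjusted p = 0.0106). These genes shared an order among the C/C libraries, with C/C 1 above C/C 2 in 18 of the 19 chaperone genes called higher. Each of these 3 calls was lost when C/C 1 was left out.

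Both HSP90 genes of the cytosol were called. Hsp90aa1 stood at 34.79, 35.36 and 30.94 CPM in C/+ and at 130.2 and 68.34 CPM in C/C (log2 fold change 1.56, SE 0.26, adjusted p = 0.00593). Hsp90ab1, its constitutive partner, stood at 698.5, 723.6 and 721.2 CPM in C/+ and at 1337 and 1041 CPM in C/C (log2 fold change 0.74, SE 0.12, adjusted p = 0.00593). The difference between these 2 changes was not tested. Ahsa1, which activates the HSP90 ATPase, and Fkbp4, an HSP90 cochaperone of steroid receptors, had log2 fold changes of 0.86 and 0.70. The small heat shock gene Hspb1 stood at 18.57, 11.06 and 13.23 CPM in C/+ and at 80.91 and 38.18 CPM in C/C (log2 fold change 2.05, SE 0.29, adjusted p = 0.00262). Hsf1, the transcription factor of the response, had a log2 fold change of 0.56 (adjusted p = 0.0416). The 19 calls became 12 when C/+ 1 was left out, 11 for C/+ 2, 2 for C/C 1 and 11 for C/C 2. Both genes still called in the fit that dropped C/C 1 were among those named here, Hspa1a and Hspb1.

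**Figure D2:**
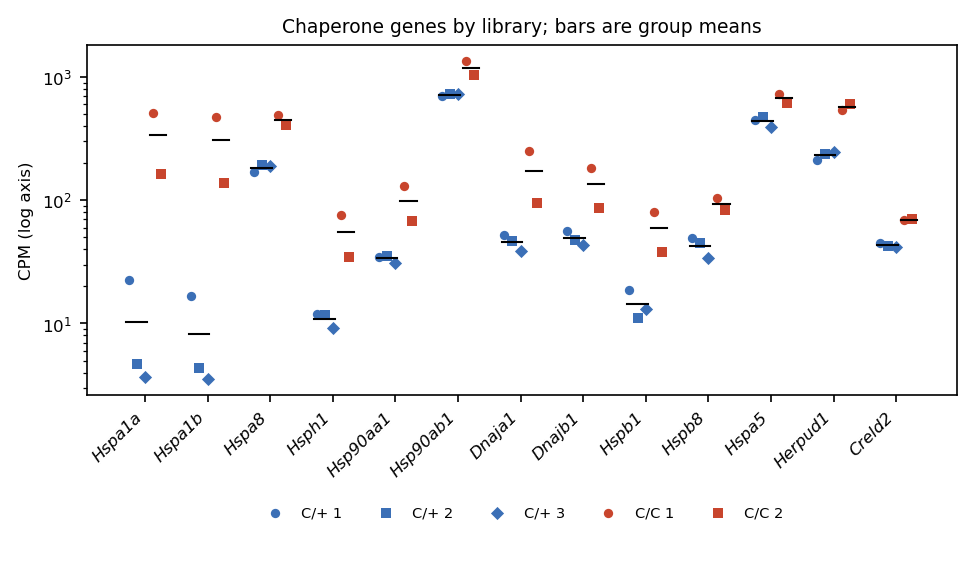
The level of 13 chaperone genes of the cytosol and ER in each library, in CPM on a log axis; blue symbols are C/+ and red symbols C/C libraries, and bars are group means. For Hspa1a the C/+ libraries sit between 3.705 and 22.69 CPM and the C/C libraries at 164.7 and 510.4 CPM, and the distance between groups is smaller for the ER genes Hspa5, Herpud1 and Creld2.

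Promoter letters of these genes were read from the RefSeq table (GRCm38.p6), over the 250 bases before the gene start and on both strands. The heat shock element core, GAANNTTC, 2 inverted GAA units, was searched because it is part of the site form of HSF1. It occurred in 6 of the 15 chaperone genes called higher that had an entry (40%) and in 11 of 44 tested chaperones (25%). Among all tested genes with an entry it occurred in 667 of 11122 (6%). The list was made of heat shock genes, so its shares are no independent evidence. Over all called genes with an entry, the core occurred in 8.74% of those higher, the 6 chaperones included, and in 8.06% of those lower. The 3-unit form GAANNTTCNNGAA, which contains the core, occurred in none of the 15 and in 0.414% of tested genes. The 4 windows below are shown because their genes changed most among those with a match; capitals mark the fixed letters of the core, and the sequences run 5′ to 3′ on the strand of the gene.
Hspa1a (chr17:34972228-34972285, minus strand): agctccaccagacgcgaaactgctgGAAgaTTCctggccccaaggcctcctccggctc
Hspa1b (chr17:34959310-34959367, minus strand): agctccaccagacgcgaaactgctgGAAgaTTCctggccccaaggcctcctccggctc
Hspb1 (chr5:135887777-135887854, plus strand): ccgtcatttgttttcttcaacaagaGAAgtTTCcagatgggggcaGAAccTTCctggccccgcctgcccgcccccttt
Dnaja1 (chr4:40722319-40722376, plus strand): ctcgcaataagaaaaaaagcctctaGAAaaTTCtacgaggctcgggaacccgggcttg
The windows of Hspa1a and Hspa1b are the same over all 58 bases, with the core starting 104 bases before the gene start, and Hspb1 holds 2 cores. A match describes these letters and does not show binding.

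The unfolded protein response list was also higher in part. Of 54 tested genes 11 were called higher and none lower, against 1.75% and 5.33% of all tested genes. The list median log2 fold change was 0.26. By arm, 5 of 18 ATF6 and lumen chaperone genes, 2 of 15 PERK and ATF4 genes, 2 of 10 IRE1 and XBP1 genes and 2 of 11 genes of ER-associated degradation were called. Herpud1, which recruits the degradation machinery to the ER membrane, stood at 211.9, 237 and 247.2 CPM in C/+ and at 534.7 and 598.8 CPM in C/C (log2 fold change 1.29, SE 0.12, adjusted p = 0.0006). Both C/C libraries were above every C/+ library by more than the spread within either group. Hspa5, the main HSP70 of the ER, stood at 446.4, 473.2 and 391 CPM in C/+ and at 731.4 and 611.1 CPM in C/C (log2 fold change 0.62, SE 0.13, adjusted p = 0.0163). Dnajb9, its HSP40 partner, had a log2 fold change of 1.07 (adjusted p = 0.00689), and Hyou1, an ER nucleotide exchange factor, 0.61 (adjusted p = 0.00702). Manf and Creld2, secreted proteins induced by ER stress, had log2 fold changes of 0.61 and 0.69. Only Herpud1 of these 6 genes was called in every fit that left out 1 library; the others were lost when C/C 1, and all but Dnajb9 when C/C 2, was dropped.

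Transcription factor genes of the response lay above C/+ in both C/C libraries, and edgeR called 1 of the 4 described here. Xbp1, the factor spliced by IRE1, stood at 198.9, 212.8 and 181.3 CPM in C/+ and at 280.9 and 260.1 CPM in C/C (log2 fold change 0.45, SE 0.11, adjusted p = 0.0347). Atf4, the factor translated under PERK signalling, had a log2 fold change of 0.60 (SE 0.16, adjusted p = 0.0582). Atf3, its target and also an early gene, stood at 374.9, 152.7 and 142 CPM in C/+ and at 1637 and 885.7 CPM in C/C (log2 fold change 2.50, SE 0.68, adjusted p = 0.0554). DESeq2 called both Atf4 and Atf3, and so did the edgeR fits with sex as a covariate or of the 5 libraries alone. Ddit3, the gene of the factor CHOP that promotes death under lasting stress, had a log2 fold change of 0.41 (SE 0.14, adjusted p = 0.115) and was not called by either tool. Sesn2, a stress-induced inhibitor of mTORC1 that the PERK and ATF4 list includes, stood at 25.72, 32.38 and 30.17 CPM in C/+ and at 54.82 and 55.65 CPM in C/C (log2 fold change 0.91, SE 0.12, adjusted p = 0.00228). The 11 calls became 2 when C/C 1 was left out and 3 for C/C 2. Among the 2 named in this paragraph and called, Sesn2 held in every such fit and Xbp1 was lost when any of the 5 libraries was dropped.

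The ER stress response element, the letters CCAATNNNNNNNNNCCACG, was searched in the same windows because ATF6 and XBP1 act on it. It occurred in 3 of the 9 called genes of the list that had an entry (33.3%), in 9 of 46 tested genes of the list (19.6%), and in 16 of 11122 tested genes (0.144%). Canonical targets of ATF6 define the list, so this share is no independent evidence. The 3 matches are shown with the fixed letters in capitals; in Creld2 the match lies on the opposite strand.
Hspa5 (chr2:34772000-34772068, plus strand): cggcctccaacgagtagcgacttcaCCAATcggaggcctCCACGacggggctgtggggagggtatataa
Creld2 (chr15:88819495-88819563, plus strand): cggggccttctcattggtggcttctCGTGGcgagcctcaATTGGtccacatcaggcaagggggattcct
Syvn1 (chr19:6046507-6046575, plus strand): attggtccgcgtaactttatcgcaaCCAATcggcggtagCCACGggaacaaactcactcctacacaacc
Syvn1 encodes the ubiquitin ligase of ER-associated degradation and stood at 56.04, 63.63 and 62.58 CPM in C/+ and at 83.32 and 82.57 CPM in C/C (log2 fold change 0.45, SE 0.10, adjusted p = 0.0258). Other genes of the list with the element were not called, among them Calr and Canx, the lectin chaperones of the ER. The Syvn1 call was lost when C/+ 1, C/+ 2 or either C/C library was left out.

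Of the lists described here, immediate early genes had the most calls in the higher direction. Among 61 tested, 24 were called higher and none lower, against 1.75% and 5.33% of all tested genes. The list median log2 fold change was 0.76. Within families, 2 of 4 FOS genes, 2 of 3 JUN genes, 1 of 2 EGR genes, 2 of 3 NR4A genes, 5 of 10 KLF and ATF genes and 4 of 16 feedback phosphatases and inhibitors were called. The summed level of the list was 9490.4, 6363.6 and 6500.8 CPM in C/+ against 20468.9 and 16422.0 CPM in C/C.

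The AP-1 genes Fos and Fosb were above C/+ in both C/C libraries, and the edgeR fit of all 8 libraries called neither. Fos stood at 1459, 785.1 and 857.7 CPM in C/+ and at 3119 and 2311 CPM in C/C (log2 fold change 1.39, SE 0.42, adjusted p = 0.0806). Fosb stood at 599.8, 240 and 286.9 CPM in C/+ and at 2602 and 1452 CPM in C/C (log2 fold change 2.43, SE 0.66, adjusted p = 0.0542). DESeq2 called Fosb, and edgeR called both with sex as a covariate, in the 5 libraries alone, and without WT 1 or WT 3. Less abundant relatives were called. Fosl1 stood at 0.1632, 0.3266 and 0.5293 CPM in C/+ and at 3.947 and 3.571 CPM in C/C (log2 fold change 3.53, SE 0.54, adjusted p = 0.00384). Fosl2, Junb and Jund had log2 fold changes of 0.84, 1.03 and 1.26. All 4 calls were lost when C/C 1 was left out, and those of Junb and Jund also for C/C 2 and C/+ 2.

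Other early transcription factors and mRNA regulators were called. Egr1 stood at 308.3, 170.8 and 129.9 CPM in C/+ and at 819.2 and 701.1 CPM in C/C (log2 fold change 1.90, SE 0.48, adjusted p = 0.0391). DESeq2 did not call Egr1. Klf6, a zinc finger transcription factor, stood at 183.2, 115.1 and 116.8 CPM in C/+ and at 837.2 and 446.6 CPM in C/C (log2 fold change 2.21, SE 0.43, adjusted p = 0.0118). Nr4a1, an orphan nuclear receptor, stood at 390.5, 212.6 and 215.1 CPM in C/+ and at 724.2 and 883.9 CPM in C/C (log2 fold change 1.56, SE 0.37, adjusted p = 0.0294). In these 3 genes the groups did not overlap, and C/+ 1 was the highest of its group; it was so in 15 of the 24 called genes. Zfp36, which directs the decay of mRNAs with AU-rich elements, and Btg2, an antiproliferative deadenylation cofactor, had log2 fold changes of 1.26 and 1.65. Csrnp1, a nuclear protein induced by AXIN1, had a log2 fold change of 1.67 (adjusted p = 0.0371). Leaving out C/+ 2, C/C 1 or C/C 2 brought the 24 calls to 11, 5 or 13. The 6 genes named in this paragraph all lost their call when C/+ 2 or C/C 1 was left out.

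A smaller set of early kinases and regulators had tight libraries. Plk3, a stress-induced polo-like kinase, stood at 7.507, 5.785 and 7.058 CPM in C/+ and at 40.39 and 37.72 CPM in C/C (log2 fold change 2.52, SE 0.22, adjusted p = 0.0006). Sik1, a kinase that restrains CREB coactivators, stood at 118.5, 106.5 and 100.7 CPM in C/+ and at 324.9 and 439.5 CPM in C/C (log2 fold change 1.82, SE 0.17, adjusted p = 0.0006). Gem, a small GTPase of calcium channels and cytoskeleton, stood at 34.5, 30.46 and 40.99 CPM in C/+ and at 111.4 and 124.1 CPM in C/C (log2 fold change 1.74, SE 0.16, adjusted p = 0.0006). Rgcc, a regulator of the cell cycle, had a log2 fold change of 2.19 (SE 0.16, adjusted p = 0.000335). These 4 genes were called in every fit that left out 1 library. In a list of 22 cAMP and CREB target genes 7 were called higher and 1 lower, against 1.75% and 5.33% of all tested genes. Of the 7, Nr4a1, Nr4a3, Junb, Sik1 and Gem are also early genes. With C/C 1 left out, 4 of the list were called higher, and with sex as a covariate 12. The cAMP response element TGACGTCA occurred in none of the 5 of these 7 that had a promoter entry, in 11 of 206 genes called higher (5.34%) and in 3.04% of tested genes.

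**Figure D3:**
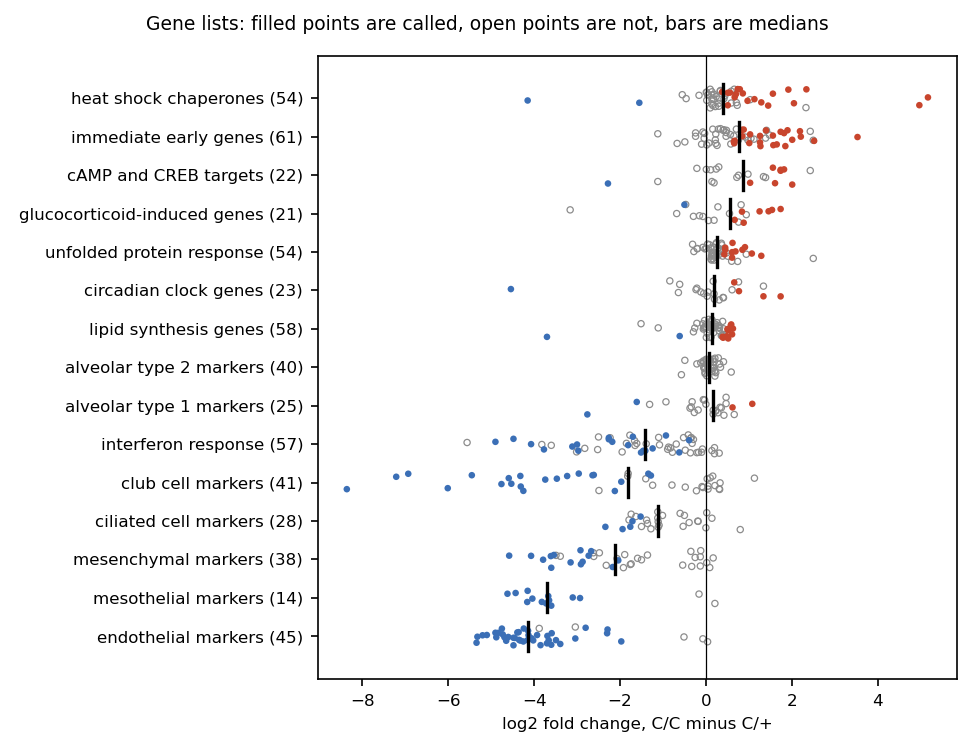
Each point is a gene of the named list (number tested in parentheses), with its log2 fold change, C/C minus C/+, on the x axis; filled red and blue points were called higher and lower, open grey points were not called, and the vertical bar is the list median. Medians of the first 7 lists lie between 0.15 and 0.87, alveolar type 2 markers have a median of 0.06, and mesothelial and endothelial markers lie far to the left with medians of -3.70 and -4.14.

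Genes that glucocorticoids induce were partly higher, beside 1.75% of all tested genes called higher and 5.33% lower. This list, 21 tested, had 7 higher calls and 1 lower call (median log2 fold change 0.55), and 5 higher calls were made with either C/C library left out and 11 with sex as a covariate. Errfi1, a feedback inhibitor of the EGF receptor, stood at 392.1, 534 and 537.1 CPM in C/+ and at 1113 and 1211 CPM in C/C (log2 fold change 1.25, SE 0.14, adjusted p = 0.00119). Klf15, a factor of amino acid breakdown and glucose production, stood at 18.61, 21.69 and 17.41 CPM in C/+ and at 55 and 56.72 CPM in C/C (log2 fold change 1.54, SE 0.20, adjusted p = 0.00214). Both genes separated the groups by far more than the spread within them. Tsc22d3, the glucocorticoid-induced leucine zipper, stood at 81.73, 88.45 and 64.05 CPM in C/+ and at 167.6 and 120.2 CPM in C/C (log2 fold change 0.88, adjusted p = 0.00818). Cebpd, a factor of the acute phase, had a log2 fold change of 1.46 (adjusted p = 0.00651). The calls of Errfi1 and Klf15 held in every fit that left out 1 library, that of Tsc22d3 was lost without C/C 1 and that of Cebpd without C/C 2. Fkbp5, a classic target of the receptor, did not pass the test, with 4.733, 5.458 and 3.352 CPM in C/+ against 5.209 and 5.109 CPM in C/C.

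The clock list of 23 tested genes had 4 called higher and 1 lower, against 1.75% and 5.33% of all tested genes. Per1, a light- and hormone-responsive repressor of the clock, stood at 53.86, 81.31 and 60.58 CPM in C/+ and at 221.1 and 213.9 CPM in C/C (log2 fold change 1.74, SE 0.19, adjusted p = 0.00119). Nfil3, a bZIP repressor of clock output, stood at 28.46, 25.24 and 29.17 CPM in C/+ and at 66.43 and 73.01 CPM in C/C (log2 fold change 1.34, SE 0.11, adjusted p = 0.000394). Cry2, a core repressor of the oscillator, stood at 72.63, 64.38 and 45.29 CPM in C/+ and at 117 and 90.21 CPM in C/C (log2 fold change 0.77, SE 0.18, adjusted p = 0.0292). Of the 6 tested activators of the clock neither edgeR nor DESeq2 called any, and 1 had an unadjusted p under 0.05. Among them Arntl had a log2 fold change of 0.17 (SE 0.11) and Clock 0.05 (SE 0.18). Nr1d1, the gene of the repressor REV-ERBα, was at 0.31 (SE 0.19, adjusted p = 0.389). Leaving out C/+ 2, C/C 1 or C/C 2 brought the 4 calls to 2 each, and the Cry2 call was lost each time.

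Further genes called in every fit that left out 1 library were picked for that property, after their values were seen. Glul, glutamine synthetase, stood at 152.2, 169.6 and 143.4 CPM in C/+ and at 487.5 and 422.3 CPM in C/C (log2 fold change 1.55, SE 0.13, adjusted p = 0.000394). Irs2, an adaptor of the insulin receptor, stood at 23.93, 27.52 and 36.05 CPM in C/+ and at 79.95 and 97.82 CPM in C/C (log2 fold change 1.61, SE 0.17, adjusted p = 0.000775). Foxo3, a transcription factor that insulin signalling holds out of the nucleus, stood at 88.75, 96.43 and 109.2 CPM in C/+ and at 186.9 and 204 CPM in C/C (log2 fold change 0.99, SE 0.11, adjusted p = 0.00119). In all of them the C/C libraries lay close together and apart from C/+. Depp1, an autophagy regulator known as a FOXO target, stood at 86.24, 62.79 and 59.22 CPM in C/+ and at 192.6 and 219.5 CPM in C/C (log2 fold change 1.57, SE 0.20, adjusted p = 0.00192). Hk2, the inducible hexokinase, stood at 43.41, 47.77 and 52.7 CPM in C/+ and at 115.6 and 125.4 CPM in C/C (log2 fold change 1.33, SE 0.14, adjusted p = 0.000775). Arrdc3, an arrestin-like protein that acts on beta-adrenergic receptors, had a log2 fold change of 1.19 (SE 0.16, adjusted p = 0.00232). Trp53inp1, a p53-induced autophagy factor, had a log2 fold change of 1.11 (SE 0.13), and Slc25a25, a mitochondrial carrier of ATP and phosphate, 1.15 (SE 0.13).

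**Figure D4:**
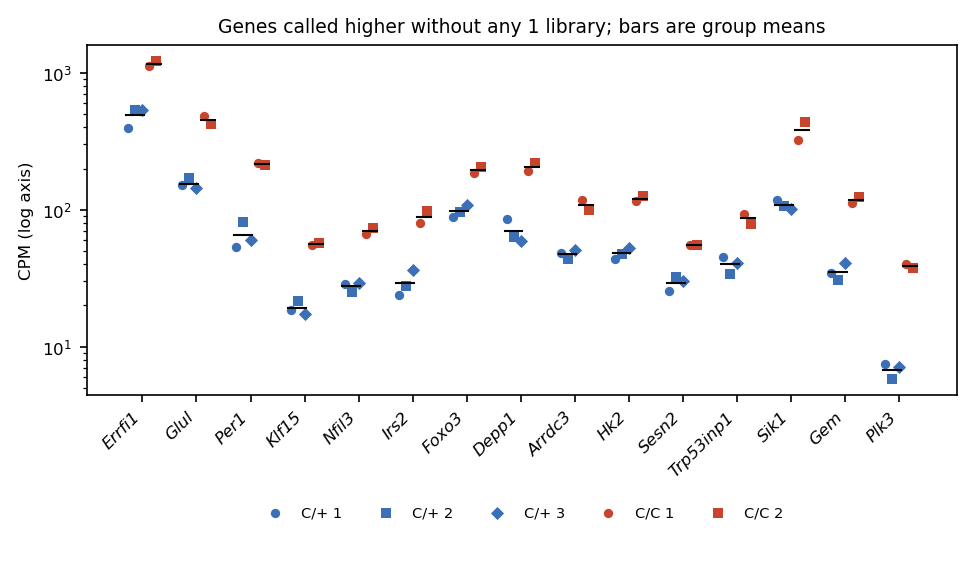
The level in each library of 15 of the 31 genes that were called higher in every fit that left out 1 library, in CPM on a log axis; blue symbols are C/+ and red symbols C/C libraries, and bars are group means. Within a gene the 2 C/C libraries lie close together, as for Per1 at 221.1 and 213.9 CPM, and above all 3 C/+ libraries.

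Sterol and lipid synthesis genes showed small increases that depended on single libraries. The 58 tested genes had 11 higher and 2 lower calls, against 1.75% and 5.33% of all tested genes. The list median log2 fold change was 0.15. Cyp51, a demethylase of sterol synthesis, stood at 74.26, 84.76 and 90.69 CPM in C/+ and at 132.4 and 124.8 CPM in C/C (log2 fold change 0.63, SE 0.15, adjusted p = 0.0305). Hmgcs1, which makes the precursor HMG-CoA, had a log2 fold change of 0.58. Fasn, fatty acid synthase and the more abundant gene, had a log2 fold change of 0.21 (SE 0.13, adjusted p = 0.403), and Scd1, the desaturase, -0.06 (SE 0.16). The 11 calls became 0 with either C/C library left out, 2 for C/+ 1, 1 for C/+ 2, 7 for C/+ 3 and 4 for WT 3.

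Genes of injured and transitional epithelium moved in both directions. The 33 tested genes had 7 higher and 3 lower calls, against 1.75% and 5.33% of all tested genes. The list median log2 fold change was 0.32. Krt8, a keratin of transitional cells, stood at 123.4, 96.47 and 101.5 CPM in C/+ and at 218.7 and 185.6 CPM in C/C (log2 fold change 0.92, SE 0.15, adjusted p = 0.00582). Sfn, the 14-3-3 sigma gene, and Cdkn1a, the p21 inhibitor of the cell cycle, had log2 fold changes of 1.20 (adjusted p = 0.00223) and 0.84 (adjusted p = 0.00313). Gdf15, a stress-induced cytokine, had a log2 fold change of 1.45 (adjusted p = 0.0271). Lcn2, an acute phase gene of injured epithelium, had a log2 fold change of 0.06 (SE 0.25), and Cldn4, a claudin of transitional cells, -0.74 (SE 0.25, adjusted p = 0.112). Type 1 cell markers showed no common direction: Gprc5a and Rtkn2 were called higher, Cav1 and Pdpn lower, of 25 tested, and Ager, the most abundant of these 5, had a log2 fold change of -0.03 (SE 0.21). Endothelium also carries Cav1, and mesothelium and lymphatic vessels Pdpn; the endothelial and mesothelial lists had medians of -4.14 and -3.70, and their part in these 2 calls was not tested. Of the called genes in this paragraph Sfn, Cdkn1a and Cav1 held in every fit that left out 1 library, and the others were lost at least when C/C 1 was dropped. For transitional genes the 7 higher calls became 3 when C/C 1 was left out and 13 with sex as a covariate.

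Of 23 ion transport genes 2 were called lower and 2 higher, against 5.33% and 1.75% of all tested genes. The lower genes were Aqp1, a water channel that endothelium also carries, at 203, 156.5 and 99.22 CPM in C/+ against 10.21 and 10.17 CPM in C/C (log2 fold change -3.91, SE 0.47, adjusted p = 0.00153), and Fxyd3, a modulator of the sodium pump, with a log2 fold change of -1.94 (adjusted p = 0.0453). Both higher genes belong to alveolar fluid clearance: Atp1b1, a sodium pump subunit, at 974, 1029 and 1105 CPM in C/+ against 1536 and 1445 CPM in C/C (log2 fold change 0.52, adjusted p = 0.027), and Scnn1a, a subunit of the epithelial sodium channel, with a log2 fold change of 0.63 (adjusted p = 0.0427). The Aqp1 call held in every fit that left out 1 library, and the other 3 were lost in each fit that dropped C/C 1, C/C 2, C/+ 1 or C/+ 2, those of Fxyd3 and Scnn1a also without WT 2. Of 9 mitochondrially encoded genes, mt-Rnr1, the small ribosomal RNA, was called higher, at 411.9, 379.6 and 370.3 CPM in C/+ against 951.7 and 851.3 CPM in C/C (log2 fold change 1.22, SE 0.20, adjusted p = 0.00551). This call was lost when C/C 1 was left out. Of 54 nuclear genes of the respiratory chain none was called by edgeR or DESeq2, and 1 had an unadjusted p under 0.05.

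Endothelial, club, mesothelial and mesenchymal marker lists were lower in C/C, and the endothelial and club cell lists had the most lower calls of all lists examined. Over all tested genes 5.33% were called lower. Other cell types differed: type 1 markers had a median log2 fold change of 0.17 and tuft markers, only 3 tested, 0.07. Medians were below 0 for basal (-2.27, 3 tested), leukocyte (-1.85, 17 tested) and alveolar macrophage markers (-1.63, 8 tested). They were also below 0 for ciliated (-1.12, 28 tested), neuroendocrine (-0.66, 6 tested) and goblet and mucin genes (-0.26, 10 tested). The endothelial list had 40 of 45 tested genes called lower and none higher (median log2 fold change -4.14), and its summed level was 1978.2, 2128.2 and 1294.1 CPM in C/+ against 343.9 and 300.1 CPM in C/C. The club cell list had 21 of 41 called lower (median -1.82), with sums of 17473.9, 13812.3 and 12422.2 CPM in C/+ against 8229.5 and 8763.4 CPM in C/C. The mesothelial list had 12 of 14 (median -3.70), with sums of 358.5, 156.1 and 177 CPM against 102.2 and 106.3 CPM. The mesenchymal list had 14 of 38 (median -2.12), with sums of 1941.7, 1394.4 and 1459.1 CPM against 1251.0 and 1279.9 CPM. In bulk libraries, fewer cells of a type and less RNA per cell cannot be told apart. The club marker Tff2 was at 0 in C/C 1 and the pericyte marker Cspg4 in C/C 2, and no other tested gene of these 4 lists was at 0 in a C/C library. Whether these transcripts bear on the genes called higher was not tested.

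Club cell genes of several roles were lower. Scgb1a1, the main secretoglobin of club cells, stood at 8388, 5028 and 4482 CPM in C/+ and at 343.1 and 549.3 CPM in C/C (log2 fold change -3.74, SE 0.52, adjusted p = 0.0027). Scgb3a2, a second secretoglobin, stood at 206.1, 109.2 and 74.1 CPM in C/+ and at 6.012 and 5.213 CPM in C/C (log2 fold change -4.53, SE 0.53, adjusted p = 0.00141). Cyp2f2, the cytochrome P450 of club cells, stood at 648.1, 414.5 and 441.6 CPM in C/+ and at 106.8 and 123.4 CPM in C/C (log2 fold change -2.12, SE 0.28, adjusted p = 0.0022). By subgroup, 3 of 4 secretoglobins were called lower, with sums of 8718.7, 5211.9 and 4613.2 CPM in C/+ against 381.1 and 583.6 CPM in C/C. Of 24 xenobiotic enzymes 12 were called lower and 8 had a log2 fold change above 0, and their sums overlapped, at 7840.1, 7859.0 and 6973.5 CPM against 7207.3 and 7444.5 CPM. The difference in the list's sum thus lay mostly in Scgb1a1. The secreted defence proteins of larger airways were close to absent in C/C. Bpifa1, an antimicrobial lipid-binding protein, had 5043, 904 and 593 counts in C/+ and 18 and 2 counts in C/C, Reg3g, a lectin that kills bacteria, 599, 233 and 60 counts against 3 and 3, and Ltf, lactoferrin, 668, 81 and 120 counts against 0 and 1. The mucin gene Muc5b stood at 22.03, 9.517 and 4.587 CPM in C/+ and at 0.1836 and 0.2606 CPM in C/C (log2 fold change -5.76, SE 0.81, adjusted p = 0.0027). C/+ 1 held the highest value in 18 of the 21 called club genes and C/+ 3 the lowest in 17, so the C/+ libraries also differed among themselves. Leaving out C/C 1 or C/C 2 brought the 21 calls to 6 or 9. Scgb3a2 and Cyp2f2 held in every fit that left out 1 library, Scgb1a1 and Muc5b were lost without C/C 1, and Bpifa1, Reg3g and Ltf were lost without either C/C library.

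Ciliated cell markers were lower by less. Of 28 tested genes 5 were called lower (median log2 fold change -1.12), which became 0 with either C/C library left out, 12 for C/+ 3 and 14 by DESeq2. Foxj1, the master regulator of motile cilia, stood at 20.79, 8.724 and 6.528 CPM in C/+ and at 4.36 and 5.135 CPM in C/C (log2 fold change -1.36, SE 0.40, adjusted p = 0.0752). Dnah11, a dynein heavy chain of the axoneme, had a log2 fold change of -2.34 (adjusted p = 0.0188). Leukocyte markers had no call among 17 tested, with 1 at an unadjusted p under 0.05 and 1 called by DESeq2. Their median log2 fold change was -1.85, 12 of the 17 were below 0, and the median level in C/C was 28.5% of that in C/+. Their sum, 35366.9 to 39410.7 CPM in C/+ and 37317.0 and 39915.2 CPM in C/C, was nearly all Lyz2, which type 2 cells also make (log2 fold change 0.05, SE 0.12, adjusted p = 0.868). Of the 17 genes 3 were at 0 in C/C 1 and 2 in C/C 2.

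Endothelial genes of blood and lymph vessels were lower. The calls covered 21 of 22 pan-endothelial genes, 17 of 20 genes of capillaries, arteries and veins, and 2 of 3 lymphatic genes. Pecam1, the junction protein CD31, stood at 108.2, 118.8 and 67.52 CPM in C/+ and at 5.209 and 6.047 CPM in C/C (log2 fold change -4.13, SE 0.60, adjusted p = 0.00311). Kit, a receptor of general capillary cells, stood at 22.46, 36.76 and 23.29 CPM in C/+ and at 0.7114 and 0.7819 CPM in C/C (log2 fold change -5.20, SE 0.68, adjusted p = 0.0022). The receptor gene Aplnr of general capillary cells and its ligand gene Apln of aerocytes both fell, with log2 fold changes of -5.34 and -4.25. Sox17 and Sox7, transcription factors of vascular identity, had log2 fold changes of -5.10 and -5.03, and Piezo2, a mechanosensitive channel, -5.44 (SE 0.57, adjusted p = 0.000941). The order of the C/+ libraries differed from that of club genes, with C/+ 2 highest in 29 of the 40 called endothelial genes and C/+ 3 lowest in 38. With C/C 1 or C/C 2 left out, 17 or 19 endothelial genes were called. Kit, Aplnr, Apln, Sox17 and Piezo2 held in every fit that left out 1 library, and Pecam1 and Sox7 were lost without C/C 1.

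Mesothelial and stromal genes were also lower. Msln, the surface protein mesothelin, stood at 79.74, 25.75 and 22.82 CPM in C/+ and at 3.052 and 1.746 CPM in C/C (log2 fold change -4.15, SE 0.79, adjusted p = 0.00997). Col3a1, a fibrillar collagen of fibroblasts, stood at 83.07, 24.02 and 28.11 CPM in C/+ and at 3.671 and 3.727 CPM in C/C (log2 fold change -3.61, SE 0.66, adjusted p = 0.00833). Vim, the intermediate filament vimentin, had a log2 fold change of -4.07 (SE 0.51, adjusted p = 0.00187). C/+ 1 was the highest C/+ library in all 12 called mesothelial and all 14 called mesenchymal genes. Leaving out C/C 1 brought the 12 mesothelial and 14 mesenchymal calls to 0 and 2, and leaving out C/C 2 to 2 and 3. Vim held in every fit that left out 1 library, and Msln and Col3a1 were lost without either C/C library.

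**Figure D5:**
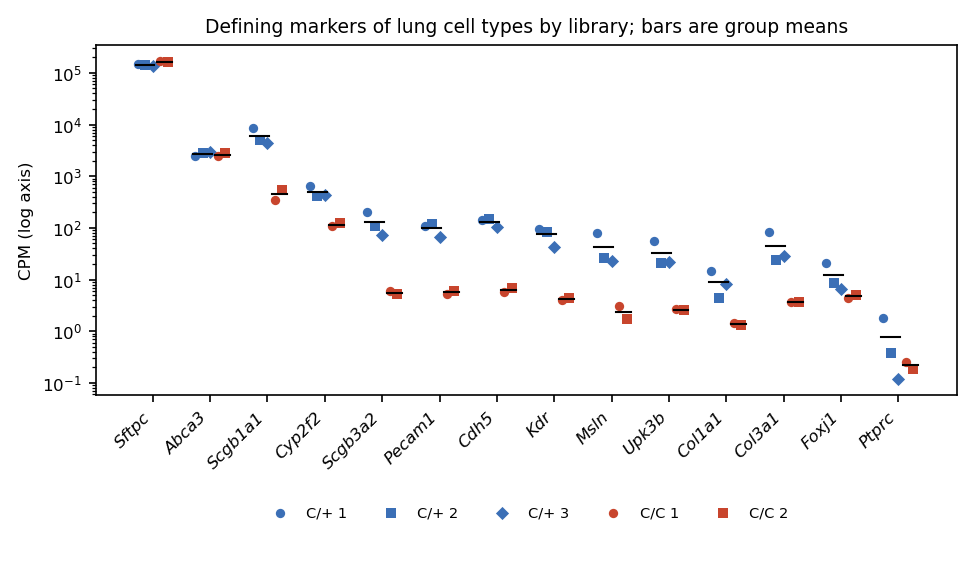
The level of defining markers of lung cell types in each library, in CPM on a log axis; blue symbols are C/+ and red symbols C/C libraries, and bars are group means. The type 2 gene Abca3 overlaps between groups and Sftpc lies slightly higher in both C/C libraries (log2 fold change 0.21, adjusted p = 0.386), while markers of club, endothelial, mesothelial and stromal cells are lower in both C/C libraries; for Pecam1 the C/+ libraries lie between 67.52 and 118.8 CPM and the C/C libraries at 5.209 and 6.047 CPM.

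Interferon-response genes were lower in C/C. The list of 57 tested genes had 19 lower calls and no higher call, against 5.33% and 1.75% of all tested genes. In this list 53 had a log2 fold change below 0, and the median was -1.41. Both subgroups of the list were represented, with 12 of 42 interferon-stimulated genes and 7 of 15 genes induced by interferon gamma. Oasl2, an antiviral OAS-like protein, stood at 23.7, 17.49 and 18.17 CPM in C/+ and at 4.36 and 3.91 CPM in C/C (log2 fold change -2.26, SE 0.22, adjusted p = 0.000689). Rtp4, a chaperone that restricts viruses, stood at 16.91, 15.49 and 20.11 CPM in C/+ and at 4.773 and 5.995 CPM in C/C (log2 fold change -1.70, SE 0.19, adjusted p = 0.00119). Gbp7, a guanylate-binding GTPase, stood at 9.139, 12.27 and 9.998 CPM in C/+ and at 1.124 and 1.538 CPM in C/C (log2 fold change -2.97, SE 0.31, adjusted p = 0.000775). Xaf1 and Gbp4 had log2 fold changes of -1.41 and -4.90, and these 5 genes were called in every fit that left out 1 library.

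The regulators Irf9 and Irf7 were called lower with smaller log2 fold changes than these 5 genes. Irf9, a subunit of the ISGF3 factor, stood at 51.08, 47.12 and 48.52 CPM in C/+ and at 36.99 and 37.56 CPM in C/C (log2 fold change -0.39, SE 0.10, adjusted p = 0.037), and Irf7, its target, had a log2 fold change of -0.93 (adjusted p = 0.0262). The endothelial list, whose sum was 1294.1 to 2128.2 CPM in C/+ against 300.1 to 343.9 CPM in C/C, moved in the same direction, and its part in the interferon counts was not tested. Leaving out C/C 1 or C/C 2 brought the 19 calls to 5 or 7, and DESeq2 called 29. Irf9 and Irf7 were among those lost with either C/C library, C/+ 1 or C/+ 2 left out.

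The antigen presentation genes called in the fit of all 8 libraries were all lower, beside 5.33% of all tested genes called lower. In the class I list 3 of 18 tested genes were called lower: Nlrc5, the class I transactivator (log2 fold change -1.74, adjusted p = 0.0113), and the nonclassical genes H2-Q6 and H2-Q7. The last 2 share part of their sequence, and their sum was 47.1, 61 and 41.9 CPM in C/+ against 22.1 and 24.6 CPM in C/C. None of the 3 was called when either C/C library was left out. In the class II list 1 of 11 genes was called, Ciita, the class II transactivator, at 29.87, 31.35 and 34.35 CPM in C/+ against 21.89 and 21.19 CPM in C/C (log2 fold change -0.56, adjusted p = 0.0243). Cd74, the invariant chain made by type 2 cells, stood at 4817, 3753 and 4347 CPM in C/+ and at 5586 and 5275 CPM in C/C (log2 fold change 0.33, SE 0.15, adjusted p = 0.234). With sex as a covariate Cd74 was called higher. The Ciita call was lost when C/+ 2 or either C/C library was left out.

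The ribosomal protein gene Rpl26 ranked among the largest decreases and shares sequence with a pseudogene. Rpl26 stood at 47.75, 86.21 and 22.23 CPM in C/+ and at 0.7802 and 1.017 CPM in C/C (log2 fold change -5.86, SE 0.62, adjusted p = 0.000986). Its processed pseudogene Gm15772 stood at 18.41, 0.2333 and 14.12 CPM in C/+ and at 40.57 and 30.18 CPM in C/C (log2 fold change 1.69, SE 0.83, adjusted p = 0.281, not called). Of the 50-base words of its transcript, 74.3% also occur in Rpl26. The sum of the pair was 66.2, 86.4 and 36.4 CPM in C/+ against 41.4 and 31.2 CPM in C/C, which overlapped between groups. The level of Rpl26 alone is therefore uncertain.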

How the data were processed

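RNA of sorted mouse lung cells was sequenced from stranded mRNA libraries, per the labels' protocols. The deposited table holds whole-number counts per Ensembl gene, not normalised, for 43432 genes in 8 libraries. The submitters' processing notes name STAR 2.4.2a, DESeq2 and the build GRCh38, whereas the identifiers are of mouse; the sources used here name no counting tool, strand setting or annotation, so the treatment of reads shared by near-identical genes is unknown. Columns were matched to samples by genotype letters and replicate number. Symbols and positions came from GENCODE M21 (GRCm38), which named 42462 identifiers.

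Genes passing filterByExpr were scaled by TMM (factors 0.915 to 1.06) and fitted with edgeR 4.0.16 (R 4.3.3), a mean per group over all 8 libraries with 5 residual degrees of freedom, and C/C was compared with C/+ by a two-sided quasi-likelihood F test. SE is the absolute log2 fold change over the root of F. The fit was tested on simulated data. Replicates differed by more than sampling noise, at a chi-square of 12.2 to 73.5 per gene. At total counts of 17057216 to 52319957, the spread between libraries, not counting, limits the precision above a few CPM. Counts of Xist and Y-linked genes gave the sex.

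The gene lists, the members and the tests were chosen with earlier results of these data known, so no list is independent evidence of its direction, and no list was tested as a set. Named genes are the chitinase family, the 15 highest and the 15 lowest log2 fold changes among called genes of at least 10 CPM without overlap, up to 10 called members of each list by level (3 where none was called), called genes within 2 Mb of Chia1 and near-identical copies; some others were named after their values were seen, for their role or stability. A few list members are counted in their lists but not reported here by name. The alternatives tried were size factors of DESeq2, its Wald test (version 1.42.0), a fit of every gene with counts, a 1 CPM minimum in 2 of the 5 libraries, a fit of those 5 libraries only, a replicate block, a sex covariate, counts thinned to the smallest total, and fits that drop each library.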

Additional observations from a re-analysis of the deposited data

How the results depend on the processing

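The total of 1056 calls was 1614 without the low-count filter and 799 with the replicate number as a block, and it ranged from 185 to 1308 when 1 library was left out. The 261 higher calls were 466 without the filter, 419 by DESeq2 and 128 with the block, of which 123 were shared, and 37 to 367 with 1 library left out. The 795 lower calls were 671 with the block and 148 to 941 with 1 library left out. The log2 fold change of Chia1 was -9.61 to -7.64 with 1 library left out and -8.31 with the block, and it was called under every alternative run. Of the 112 called genes named, 91 were also called with the block, 110 by DESeq2, 46 without C/C 1 and 63 without C/C 2, and none changed direction. Same-numbered libraries did not deviate together (correlations of -0.21 to 0.09). Deviations were taken from means of 2 or 3 libraries, so these correlations cannot show whether the numbers pair libraries. With the block the higher calls were 6 of the unfolded protein response, 2 of lipid synthesis and 0 of ion transport, the ciliated list had 2 lower calls, and Ciita and Cry2 were not called. Where a C/C library is left out, the lone C/C library is assumed to vary like the other groups.

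Uncalled genes near 0 changed sign. With sex as a covariate Ager was at 0.15, Clock at -0.09 and Lcn2 at -0.14, and with the block Scd1 was at 0.00. With 1 library left out the log2 fold changes ranged from -0.15 to 0.05 for Abca3, -0.19 to 0.13 for Ager, -0.02 to 0.09 for Clock, -0.11 to 0.21 for Lcn2 and -0.20 to 0.07 for Scd1. The cause of these changes was not tested. At these depths, genes under about 1 CPM in C/C rest on few counts.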

Other observations

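The list of cytokines and NF-kB targets, 33 tested, had 3 higher and 2 lower calls, against 1.75% and 5.33% of all tested genes, so its share of lower calls was near that of all genes. Cxcl16, a membrane-bound chemokine and scavenger receptor, stood at 81.27, 74.41 and 77.87 CPM in C/+ against 133.6 and 129.7 CPM in C/C (log2 fold change 0.76, SE 0.10, adjusted p = 0.00232). Nfkbiz, an inducible nuclear inhibitor of NF-kB, stood at 86.73, 48.66 and 67.63 CPM in C/+ against 221.3 and 180.4 CPM in C/C (log2 fold change 1.57, SE 0.21, adjusted p = 0.00232). Both were called in every fit that left out 1 library. Cx3cl1, a chemokine of monocytes, was lower, with a log2 fold change of -0.67 (SE 0.13, adjusted p = 0.0108), and lost its call with either C/C library left out.

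Of 25 antioxidant genes 2 were called higher. Over all tested genes 1.75% were called higher and 5.33% lower. Nfe2l2, the gene of NRF2, the main antioxidant transcription factor, had a log2 fold change of 0.58 (adjusted p = 0.0429). Osgin1, one of its targets, stood at 65.9, 58.03 and 60.17 CPM in C/+ against 118.1 and 107.6 CPM in C/C (log2 fold change 0.88, SE 0.12, adjusted p = 0.00232). The Osgin1 call held in every fit that left out 1 library, and the Nfe2l2 call was lost for each library but WT 1 and C/+ 3. Among 15 genes of type 2 progenitor cells 2 were called lower, Tm4sf1 and Wnt3a. The median of the 15 was -0.79, 12 were below 0, 10 had an unadjusted p under 0.05, and DESeq2 called 6 lower. Tm4sf1, a surface marker of such cells that endothelium also carries, stood at 48.76, 46.74 and 18.41 CPM in C/+ against 4.429 and 4.613 CPM in C/C (log2 fold change -3.07, SE 0.37, adjusted p = 0.00153). The ligand gene Wnt3a had a log2 fold change of -4.05 (adjusted p = 0.00525), and its call was lost with either C/C library left out. Of 40 lysosome genes only Lipa, the acid lipase, was called, a share below that of all genes, at 5.255, 3.126 and 2.764 CPM in C/+ against 0.5048 and 0.2085 CPM in C/C (log2 fold change -3.36, SE 0.57, adjusted p = 0.00606), and was lost without C/C 2. F3, the initiator of blood clotting, was chosen after its value was seen, for its call in every fit that left out 1 library, and stood at 13.15, 9.937 and 10.82 CPM in C/+ against 25.95 and 35.03 CPM in C/C (log2 fold change 1.43, SE 0.19, adjusted p = 0.00223).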
